A study of Mus musculus with 12 samples.

Results

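The 10 genes described here encode proteins of the Wnt pathway: the receptor Fzd8, the co-receptors Lrp5 and Lrp6, the signal transducer β-catenin (Ctnnb1), the ligand Wnt5a, the secreted antagonists or modulators Sfrp1, Sfrp2 and Dkk3, and the transcriptional targets Axin2 and Lef1. They were taken by symbol from a table of 56748 genes, in which each symbol was carried by a single identifier, and all 10 passed the filter on low counts that 16465 genes passed. The RNA came from C3H/10T1/2 cells (CH310T1/2 in the sample records), a mouse mesenchymal progenitor line that was wild type in every group, starved of serum in suspension and then plated on hydrogels of 12 kPa stiffness for 18 h. The gels carried type I collagen, applied at 0.05 mg/ml and polymerized alone (col1), with 30 nM recombinant aortic carboxypeptidase-like protein (col1-ACLP), or with ACLP in cells that also received SB431542, an inhibitor of the TGFβ type I receptor ALK5 (col1-ACLP+SB), with 4 libraries in each group and 12 in all. No group received the inhibitor on collagen without ACLP, so its effect was measured only in the presence of ACLP.

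In the canonical branch of Wnt signaling, a secreted ligand binds a Frizzled receptor together with Lrp5 or Lrp6, the complex of Axin, APC and Gsk3 that marks β-catenin for degradation is inhibited, and β-catenin then enters the nucleus and binds TCF and LEF factors. Axin2 and Lef1 are transcribed in response in many tissues, and Axin2 feeds back by promoting β-catenin degradation. Mesenchymal progenitors use the pathway when they choose between osteogenic, fibrogenic and adipogenic fates, and a link of ACLP to Frizzled-8 and LRP6 was the reason for following these genes. The libraries measured mRNA, and β-catenin protein, its phosphorylation and its location were not measured.

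Library totals ran from 29246154 to 52201922 counts. Of the cell type markers, the 6 mesenchymal genes summed to at least 24903 CPM (counts scaled to the library total) in every library, and the highest sums of the epithelial, endothelial, haematopoietic and adipocyte lists, of 5 genes each, were 4.04, 11.5, 10.0 and 2.28 CPM. The mesenchymal sum differed between groups, at 24903 to 25798 CPM for col1, 34724 to 42968 for col1-ACLP and 31680 to 37219 for col1-ACLP+SB, and its part in the differences below was not tested. Col1a1 and Col1a2 made up most of it and averaged 11904 and 7307 CPM on col1 and 20962 and 11493 CPM on col1-ACLP, while the other 4 markers averaged 5213 and 4903 CPM (Vim), 483 and 437 CPM (Pdgfrb), 420 and 248 CPM (Pdgfra), and 22 and 22.8 CPM (Thy1). Of the other lists, the haematopoietic sum was 9.14 to 10.0 CPM on col1 and 5.46 to 8.72 CPM on col1-ACLP. The adipocyte sum was 0.794 to 2.28 CPM on col1 and 0.342 to 0.695 CPM on col1-ACLP+SB. Neither pair overlapped, while the epithelial and endothelial sums of both ACLP groups overlapped col1, and the part of these sums was not tested either. In bulk RNA, a change in the number of cells of a type and a change in RNA per cell cannot be told apart. The col1 replicate 2 library stood apart from its group, with a first principal component score of −86.7 against −11.1 to −8.97 in the other col1 libraries, and the difference of each of the 10 genes from col1 is therefore also given without it.

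Levels of the 10 genes fell into a high and a low set. Compared per length, as CPM divided by gene length in kilobases (FPKM, the mean over 12 libraries), Ctnnb1 was at 122 FPKM and ranked 289 among the 16465 genes tested, Fzd8 was at 48.7, Lrp5 at 44.9 and Lrp6 at 21.9. The ligand, the antagonists and the targets were all below 1 FPKM, from Sfrp2 at 0.941 and Sfrp1 at 0.526 through Wnt5a at 0.404, Dkk3 at 0.152 and Lef1 at 0.137 to Axin2 at 0.052, which ranked 16297. Axin2 drew between 0 and 50 reads in a library and Lef1 between 5 and 93.

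The first comparison asked how collagen-bound ACLP changed these mRNAs. On col1-ACLP, Fzd8, Lrp5, Lrp6 and Ctnnb1 were higher and Sfrp2 was lower than on col1, and the other 5 genes did not pass the test. A gene was called at an adjusted p below 0.05 in edgeR's quasi-likelihood test, and fold changes are on the log2 scale. By that rule 5 of the 10 genes were called, where 17.9% of all genes tested were. Of these, 4 genes rose, where 9.52% of all genes rose, and 1 fell, where 8.41% fell. With a size of more than 0.58 asked for as well, 3 remained, Fzd8, Lrp5 and Sfrp2, against 4.97% of all genes, 2 of them upward against 2.61% and 1 downward against 2.36%. The same 5 genes were those whose col1 and col1-ACLP libraries did not overlap, 4 upward against 10.9% of all genes and 1 downward against 10.3%.

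Fzd8 (ENSMUSG00000036904, chr18:9212163-9218136 on the plus strand, GRCm39), a seven-pass receptor that binds Wnt ligands through its extracellular cysteine-rich domain, was at 225, 233, 218 and 213 CPM in the 4 col1 libraries. It was at 344, 327, 340 and 378 CPM on col1-ACLP and at 286, 318, 318 and 293 CPM on col1-ACLP+SB. Both ACLP groups lay above every col1 library, and the col1-ACLP+SB libraries lay between the other groups without overlap. The increase on col1-ACLP was 0.65 on the log2 scale (SE 0.052, edgeR quasi-likelihood test, Benjamini-Hochberg adjusted p = 6.3e-10), and that on col1-ACLP+SB was 0.45 (SE 0.052, adjusted p = 6e-07). Without col1 replicate 2 the increases were 0.67 and 0.48.

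Lrp5 (ENSMUSG00000024913, chr19:3634828-3736564, minus strand), a single-pass co-receptor known for its role in bone mass, was at 325, 316, 339 and 330 CPM on col1. On col1-ACLP it was at 497, 492, 476 and 517 CPM, and on col1-ACLP+SB at 464, 491, 518 and 478 CPM. Both ACLP groups stood above col1 and overlapped each other. The increase was 0.60 on col1-ACLP (SE 0.045, edgeR adjusted p = 1.6e-10) and 0.575 on col1-ACLP+SB (SE 0.045, adjusted p = 8.4e-10), the second just under the size threshold of 0.58. Both moved little without col1 replicate 2, to 0.58 and 0.56.

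Lrp6 (ENSMUSG00000030201, chr6:134423439-134543928, minus strand), the close relative of Lrp5 that is phosphorylated when a Wnt ligand binds, changed less. It was at 289, 266, 295 and 276 CPM on col1, at 308, 322, 342 and 351 CPM on col1-ACLP, and at 276, 262, 316 and 297 CPM on col1-ACLP+SB. The col1-ACLP libraries all lay above the col1 libraries, whereas those with the inhibitor overlapped both groups. The increase on col1-ACLP was 0.23 (SE 0.056, edgeR adjusted p = 0.0037) and was 0.21 without col1 replicate 2 (adjusted p = 0.0172). On col1-ACLP+SB the difference from col1 was 0.03, with a 95% interval of −0.083 to 0.15 (edgeR adjusted p = 0.833), and it was 0.0066 without col1 replicate 2.

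Ctnnb1 (ENSMUSG00000006932, chr9:120758282-120789573, plus strand), which encodes β-catenin, was at 540, 547, 524 and 552 CPM on col1. It was at 726, 711, 712 and 698 CPM on col1-ACLP and at 643, 628, 678 and 642 CPM on col1-ACLP+SB. The 3 groups did not overlap and stood in the order col1, col1-ACLP+SB, col1-ACLP. The increase was 0.40 on col1-ACLP (SE 0.039, edgeR adjusted p = 2.7e-08) and 0.26 on col1-ACLP+SB (SE 0.039, adjusted p = 3.6e-05), and without col1 replicate 2 it was 0.40 and 0.27. Reads of Ulk4, which overlaps Ctnnb1 on the opposite strand, came to 747 over all libraries beside 268628 for Ctnnb1.

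**Figure D1:**
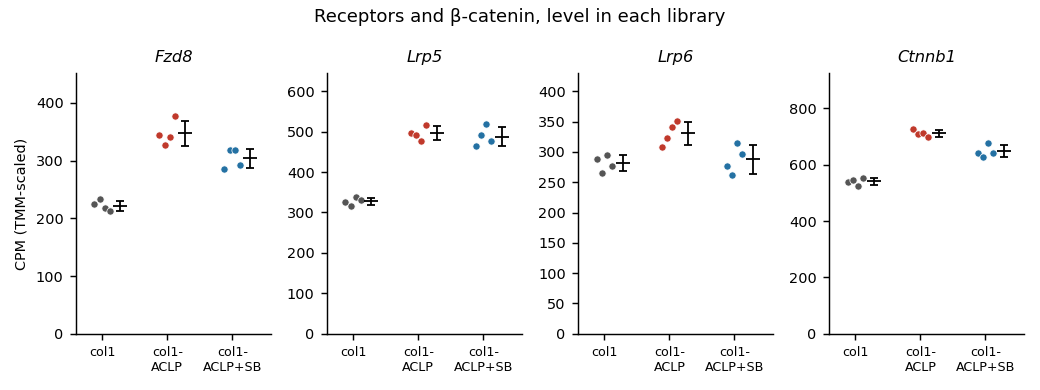
Level of Fzd8, Lrp5, Lrp6 and Ctnnb1 in each library, in CPM on an axis from 0, by hydrogel group; points are libraries and the bar beside them is the mean ± SD of 4 libraries. The col1-ACLP libraries lie above every col1 library in all 4 panels, and Lrp6 is the only panel in which the col1-ACLP+SB libraries overlap those on col1.

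To set Fzd8 and Lrp5 against related receptors within a library, 2 ratios were formed after the levels had been seen. Fzd8 made up 20.8%, 21.3%, 20.1% and 19.8% of the summed FPKM of the 10 Frizzled genes on col1. Its share was 26.4%, 26.6%, 26.5% and 28.1% on col1-ACLP and 25.7%, 25.8%, 25.3% and 25.0% on col1-ACLP+SB. The 3 groups did not overlap. The share was 6.40 percentage points higher on col1-ACLP than on col1, 4.97 points higher on col1-ACLP+SB than on col1, and differed by −1.43 points from col1-ACLP to col1-ACLP+SB. These shares are a description without a test, since they follow from levels already given. Fzd2, the most abundant Frizzled at 98.4 FPKM, held a mean of 52.3%, 47.2% and 49.4% in the col1, col1-ACLP and col1-ACLP+SB groups. The order of the Frizzled genes by mean FPKM was Fzd2, Fzd8 (48.7), Fzd1 (23.4), Fzd7 (9.74), Fzd4 (8.94), Fzd9 (6.35), Fzd5 (2.43) and Fzd3 (0.899), and Fzd6 and Fzd10 did not pass the count filter.

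The FPKM of Lrp5 divided by that of Lrp6 was 1.58, 1.67, 1.61 and 1.68 on col1. It was 2.27, 2.14, 1.96 and 2.07 on col1-ACLP and 2.36, 2.63, 2.31 and 2.26 on col1-ACLP+SB. Both ACLP groups lay above col1, with the mean ratio higher by 0.475 and 0.753. The groups with and without the inhibitor overlapped, with a difference of 0.279 between their means.

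**Figure D2:**
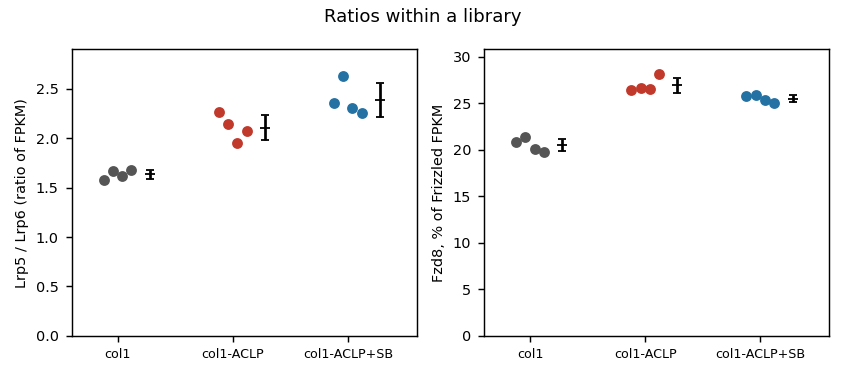
Ratio of Lrp5 to Lrp6 FPKM (left) and Fzd8 as a percentage of the summed FPKM of the 10 Frizzled genes (right) in each library, on axes from 0; points are libraries and bars the mean ± SD of 4. The Lrp5 to Lrp6 ratio is 1.58 to 1.68 on col1 and 1.96 or more in both other groups, and the Fzd8 share is at most 21.3% on col1 and at least 25.0% elsewhere.

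The antagonists and the ligand were measured at 4.11 CPM or less in every library. Sfrp2 (ENSMUSG00000027996, chr3:83673628-83681623, plus strand), a secreted Frizzled-related protein that binds Wnt ligands, was at 2.64, 3.68, 3.55 and 3.11 CPM on col1. It was at 0.58, 2.52, 1.77 and 0.992 CPM on col1-ACLP, and at 1.97, 0.973, 1.72 and 0.827 CPM on col1-ACLP+SB. Every col1 library was above every library of the other groups, although the highest col1-ACLP library, at 91 reads, came close to the lowest on col1, at 101 reads. Sfrp2 fell by 1.14 on col1-ACLP (SE 0.374, edgeR adjusted p = 0.0345) and by 1.23 on col1-ACLP+SB (SE 0.374, adjusted p = 0.0369). The change stayed between −1.55 and −0.87 on col1-ACLP, and between −1.44 and −1.05 on col1-ACLP+SB, under all 20 alternatives run for each, and was −1.07 and −1.16 without col1 replicate 2. The calls did not hold in every alternative. On col1-ACLP the edgeR adjusted p was 0.071, 0.0774 and 0.0583 without col1 replicate 2, 3 or 4, and 0.117 and 0.103 without col1-ACLP replicate 1 or 4. On col1-ACLP+SB it was 0.0754, 0.0874 and 0.0675 without the same col1 libraries, 0.0984 and 0.114 without col1-ACLP+SB replicate 2 or 4, and 0.0509 with the replicate number as a block.

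Sfrp1 (ENSMUSG00000031548, chr8:23901518-23939648, plus strand), from the same family of ligand-binding proteins, had 1.40 to 2.40 CPM in the col1 group, 1.77 to 3.54 with ACLP and 1.34 to 3.53 with ACLP and the inhibitor. The groups overlapped, and the differences from col1 of 0.63 (95% interval −0.019 to 1.28) and 0.35 (−0.30 to 1.00) did not pass (edgeR adjusted p = 0.192 and 0.617), and they were 0.53 and 0.25 without col1 replicate 2. Under all alternatives they ran from 0.50 to 0.80 and from 0.069 to 0.53, the lowest of the second being without col1-ACLP+SB replicate 1. Dkk3 (ENSMUSG00000030772, chr7:111715224-111758264, minus strand), a divergent member of the Dickkopf family, had 14, 66, 8 and 29 reads on col1, 40, 8, 3 and 8 on col1-ACLP, and 10, 14, 0 and 16 on col1-ACLP+SB. Its differences from col1 were −0.72 and −1.27 (edgeR adjusted p = 0.657 and 0.476), and without col1 replicate 2, the library with 66 reads, they were 0.09 and −0.46. Under all alternatives they ran from −1.89, without col1-ACLP replicate 1, to 0.09, and from −2.30, in limma-voom, to −0.46.

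Wnt5a (ENSMUSG00000021994, chr14:28226707-28249405, plus strand), a ligand that acts largely without β-catenin, was at 3.13, 0.741, 4.01 and 3.93 CPM on col1. It was at 2.41 to 4.11 CPM on col1-ACLP and at 2.48 to 3.94 CPM on col1-ACLP+SB. The groups overlapped, and the low col1 value was that of replicate 2, the library that stood apart. The differences from col1 were 0.25 (95% interval −0.44 to 0.94, edgeR adjusted p = 0.704) and 0.04 (−0.65 to 0.73, adjusted p = 0.973), and without that library they were −0.07 and −0.28. Under all alternatives they ran up to 0.45 and 0.32, both in limma-voom, and to 0.43 and 0.22 without col1 replicate 3.

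Axin2 and Lef1, which β-catenin with TCF or LEF factors induces in many cells, are shown here with the sequence before their starts, since they are the direct readouts of the canonical branch among the 10 genes. The windows hold 250 bases before and 50 after a RefSeq transcript start on GRCm38.p6, chr11:108920099-108920398 for Axin2 and chr3:131156044-131156343, the last of 4 Lef1 starts, both on the plus strand. This Lef1 window was picked because it was the only one of the 4 with a match, and the other 3 held 0. Windows were present for 4 of the 10 genes (Axin2, Ctnnb1, Lef1 and Sfrp2), 8 windows in all. Capitals mark TCAAAG, a form of the core bound by TCF and LEF factors, which was searched on both strands (CTTTGA on the other). Other forms of the core were not searched, so a window without a match can still hold one.
Axin2: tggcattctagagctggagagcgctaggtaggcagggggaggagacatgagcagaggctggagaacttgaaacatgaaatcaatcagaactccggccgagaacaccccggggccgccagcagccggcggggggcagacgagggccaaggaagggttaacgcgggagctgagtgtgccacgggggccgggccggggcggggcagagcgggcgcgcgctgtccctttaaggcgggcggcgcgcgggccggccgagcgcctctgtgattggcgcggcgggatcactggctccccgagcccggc
Lef1: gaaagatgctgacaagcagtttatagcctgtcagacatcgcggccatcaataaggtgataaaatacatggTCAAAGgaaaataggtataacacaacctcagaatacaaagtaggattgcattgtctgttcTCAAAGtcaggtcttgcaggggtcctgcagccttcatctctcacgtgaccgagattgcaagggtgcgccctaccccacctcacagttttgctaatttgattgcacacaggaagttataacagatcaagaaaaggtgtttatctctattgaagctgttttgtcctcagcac
The Lef1 window held 2 matches and the other 7 windows held 0. Of all 32851 windows in the table, 16.0% held at least 1 match and 1.73% held 2 or more, shares of single windows that a window picked from 4 cannot be read against. A match is a run of letters only, and binding at these windows was not measured.

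Axin2 (ENSMUSG00000000142, chr11:108811175-108841609, plus strand, GRCm39) gave 8, 20, 8 and 50 reads in the col1 libraries, or 0.209, 0.530, 0.243 and 1.16 CPM. On col1-ACLP it gave 7, 8, 10 and 10 reads (0.214 to 0.354 CPM), and on col1-ACLP+SB it gave 0, 0, 2 and 4 reads (0 to 0.132 CPM). The col1-ACLP libraries lay within the range of col1, and all 4 libraries with the inhibitor lay below every other library. On col1-ACLP the difference from col1 was −0.94 (95% interval −2.63 to 0.75, edgeR adjusted p = 0.514), and it was −0.94 without col1 replicate 2 and −0.22 without col1 replicate 4, the library with 50 reads. On col1-ACLP+SB Axin2 fell by 3.59 (SE 0.974, 95% interval −5.60 to −1.58, edgeR adjusted p = 0.0176), on 6 reads in 4 libraries beside 86 on col1. Axin2 passed the count filter only through libraries of the groups where it was higher, did not pass it when only these 2 groups were used, and had no adjusted p in DESeq2, so this value is a description of low counts more than a test. The call was lost without col1 replicate 4 (−2.87, adjusted p = 0.138) and without col1-ACLP+SB replicate 1, 2 or 3 (adjusted p = 0.077, 0.0616 and 0.0634), and it held without col1 replicate 2 (−3.59, adjusted p = 0.0324).

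Lef1 (ENSMUSG00000027985, chr3:130904120-131018005, plus strand) encodes one of the factors that β-catenin binds. It was at 1.49, 1.14, 0.911 and 1.39 CPM on col1, at 0.153, 1.41, 1.84 and 0.602 CPM on col1-ACLP, and at 1.34, 0.638, 1.79 and 1.75 CPM on col1-ACLP+SB. The groups overlapped, and the col1-ACLP libraries ran from 5 to 55 reads. The differences from col1 were −0.30 and 0.17 (edgeR adjusted p = 0.774 and 0.918), with 95% intervals of −1.36 to 0.76 and −0.88 to 1.21, and without col1 replicate 2 they were −0.34 and 0.13. Under all alternatives they ran from −0.78 to 0.06 and from 0.011 to 0.40, and the first was above 0 only without col1-ACLP replicate 1, the library with 5 reads.

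**Figure D3:**
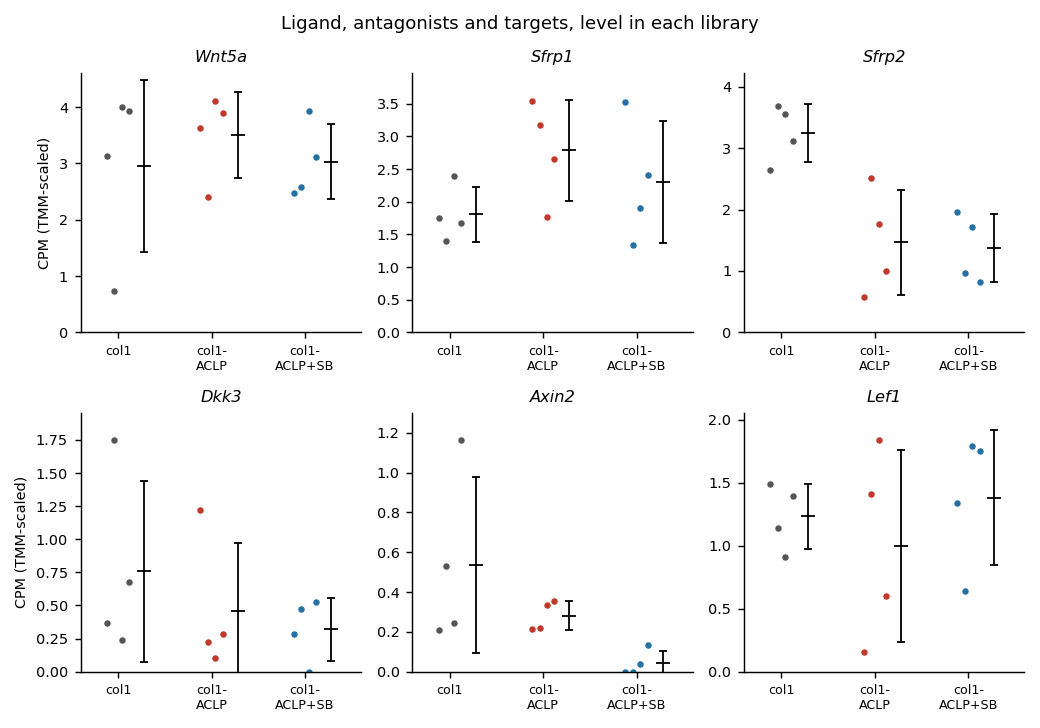
Level of Wnt5a, Sfrp1, Sfrp2, Dkk3, Axin2 and Lef1 in each library, in CPM on an axis from 0 that differs between panels, by hydrogel group; points are libraries and the bar is the mean ± SD of 4 libraries, with the lower arm ending at the axis where it would pass 0. The col1 libraries lie above all others for Sfrp2, the col1-ACLP+SB libraries lie below all others for Axin2, and the groups overlap in the other panels.

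With the inhibitor present, col1-ACLP+SB was compared with the same col1 libraries. Of the 10 genes 5 were called, where 9.13% of all genes tested were. Fzd8, Lrp5 and Ctnnb1 rose, 3 genes where 4.6% of all genes rose, and Sfrp2 and Axin2 fell, 2 genes where 4.54% fell. Axin2 passed the count filter only through the groups where it was higher, and without it 4 of 9 genes were called in this comparison, of which Sfrp2 was the only 1 that fell, changed by more than 0.58 or lay below col1 without overlap. Of these, Sfrp2 and Axin2 changed by more than 0.58, where 2.28% of all genes did (1.27% upward and 1.01% downward). The same 5 genes were those whose libraries did not overlap with col1, 3 upward against 6.7% of all genes and 2 downward against 6.32%. The col1 group is shared with the first comparison, so the results of these comparisons are given side by side and their likeness was not tested.

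The direct comparison of col1-ACLP+SB with col1-ACLP asked what the inhibitor changed in the presence of ACLP. None of the 10 genes passed edgeR's quasi-likelihood test, where 1.48% of all genes did (0.571% upward, 0.905% downward, and 0.128% by more than 0.58), although 4 were below an unadjusted p of 0.05 (3 without Axin2, which passed the count filter only through the groups where it was higher), where 12.8% of all genes were. Fzd8 differed by −0.19 (95% interval −0.30 to −0.087, edgeR adjusted p = 0.059), Lrp6 by −0.20 (−0.32 to −0.085, adjusted p = 0.0733) and Ctnnb1 by −0.14 (−0.22 to −0.055, adjusted p = 0.0848). Lrp5 differed by −0.02, with an interval of −0.12 to 0.068 (adjusted p = 0.907). The libraries of Fzd8, Ctnnb1 and Axin2 did not overlap between these groups, 3 genes downward (2 without Axin2) and 0 upward where 4.52% and 3.65% of all genes did so, while Axin2 differed by −2.65 (−4.68 to −0.62, edgeR adjusted p = 0.211). Other tools gave more calls: DESeq2 called Fzd8, Lrp6 and Ctnnb1 lower (adjusted p = 0.0123, 0.0208 and 0.00635), limma-voom called Fzd8 and Ctnnb1 (0.0431 and 0.0456), and edgeR without the count filter called Fzd8 and Lrp6 (0.0191 and 0.013). Leaving out col1-ACLP+SB replicate 3 made the same calls as DESeq2 (edgeR adjusted p = 0.0435, 0.0216 and 0.0435).

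**Figure D4:**
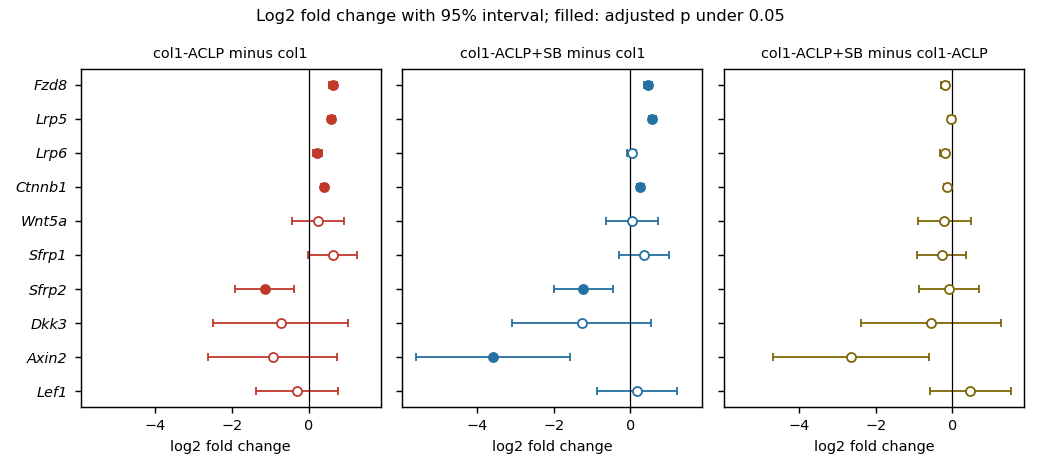
Log2 fold change of each of the 10 genes in the 3 comparisons of hydrogel groups, with 95% intervals from edgeR's quasi-likelihood fit; filled points have an adjusted p below 0.05. Fzd8, Lrp5, Lrp6 and Ctnnb1 have narrow intervals, and Dkk3, Axin2 and Lef1, measured on few reads, have intervals that span more than 2 log2 units in the first panel.

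The remainder of the pathway was followed through a list of 114 genes in 9 roles, which contains the 10 genes above, and 83 of the 114 passed the count filter. On col1-ACLP, 16 of the 83 rose (19.3%, beside 9.52% of all genes tested) and 5 fell (6.02%, beside 8.41%), or 12 and 4 of the 73 that are not among the 10 genes. By more than 0.58, 7 rose (8.43%, beside 2.61%) and 2 fell (2.41%, beside 2.36%). Nfatc2 and Axin2 passed the count filter only through the groups where they were higher, and of the other 81 genes 15 rose (18.5%) and 5 fell (6.17%), 6 (7.41%) and 2 (2.47%) of them by more than 0.58. The median log2 change of the 83 was −0.015, beside −0.010 over all genes tested. On col1-ACLP+SB compared with col1, 7 rose (Fzd8, Lrp5, Fzd5, Ctnnb1, Lgr4, Ccn4 and Nfatc2) and 6 fell (Sfrp2, Axin2, Apc2, Prickle2, Rspo2 and Tle2), where 4.6% and 4.54% of all genes did, and without Nfatc2 and Axin2 6 rose (7.41%) and 5 fell (6.17%). Between the groups with and without the inhibitor 1 rose and 3 fell, where 0.571% and 0.905% of all genes did.

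Of the 14 receptors tested, 7 rose on col1-ACLP (beside 9.52% of all genes) and none fell (beside 8.41%). Beside Fzd8, Lrp5 and Lrp6, these were Fzd1, Fzd5, Fzd9 and the atypical receptor Ryk, which were 4 of the 11 tested receptors not already described. Fzd5 was at 12.5 ± 1.58 CPM on col1, at 20.6 ± 1.85 with ACLP and at 17.2 ± 2.04 with ACLP and the inhibitor (SD, n = 4 libraries). It rose by 0.72 on col1-ACLP (edgeR adjusted p = 3.5e-05) and by 0.47 on col1-ACLP+SB (adjusted p = 0.0075). Fzd2, at 347 ± 2.91 and 373 ± 11.5 CPM on col1 and col1-ACLP, differed by 0.10 (edgeR adjusted p = 0.138). With the inhibitor, 3 of the 14 receptors were higher than on col1, where 4.6% of all genes were, and these were Fzd8, Lrp5 and Fzd5.

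Lgr4, a receptor for R-spondins that strengthens Wnt signaling by clearing the ligases that remove Frizzled from the membrane, rose as well. It was at 169 ± 4.39, 264 ± 10.5 and 226 ± 5.81 CPM in the col1, col1-ACLP and col1-ACLP+SB groups. The increase was 0.65 on col1-ACLP (edgeR adjusted p = 6.6e-11) and 0.42 on col1-ACLP+SB (adjusted p = 2.9e-07), and the difference with the inhibitor was −0.23 (adjusted p = 0.0088). Rspo2, which encodes an R-spondin and was at 331 ± 8.11 CPM on col1, fell by 0.50 on col1-ACLP and by 0.41 on col1-ACLP+SB (edgeR adjusted p = 4.4e-08 and 2.3e-06). The other R-spondin tested, Rspo3, rose on col1-ACLP by 0.23 (edgeR adjusted p = 0.0108), so that 2 of the 4 genes tested in this role rose and 1 fell, where 9.52% and 8.41% of all genes did. Of the antagonists, 7 of 16 were tested, and Frzb, another secreted Frizzled-related protein, rose by 0.72 on col1-ACLP (11.4 ± 2.04 to 18.9 ± 1.23 CPM, edgeR adjusted p = 9.1e-05), opposite in direction to Sfrp2. On col1-ACLP+SB Frzb was at 14.7 ± 1.57 CPM and differed from col1 by 0.36 (edgeR adjusted p = 0.067). Kremen1, a Dickkopf receptor with the highest FPKM of the antagonists, differed by −0.12 (edgeR adjusted p = 0.173).

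Of the 10 targets tested, Ccn4 and Ccnd1 rose on col1-ACLP and none fell, where 9.52% of all genes rose and 8.41% fell. Ccn4 (also known as Wisp1), a matricellular protein named as a Wnt-induced gene, averaged 37.3 ± 3.86, 116 ± 12.3 and 85.3 ± 8.95 CPM in the col1, col1-ACLP and col1-ACLP+SB groups. It rose by 1.63 and 1.20 over col1 (edgeR adjusted p = 1.9e-13 and 1.2e-10), and the inhibitor changed it by −0.44 (adjusted p = 0.0045). Ccnd1, which encodes cyclin D1 and overlaps LTO1 on the other strand, rose by 0.22 on col1-ACLP (edgeR adjusted p = 0.0021). Reads of LTO1 came to 10005 over all libraries beside 94019 for Ccnd1. Axin2 and Lef1, in the same group, did not pass in this comparison.

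The complex around β-catenin, with 16 genes tested, gave 2 that rose on col1-ACLP, Ctnnb1 and Gsk3b, and 1 that fell, Dvl3, shares of 12.5% and 6.25% that are near those of all genes (9.52% and 8.41%). Of the 13 nuclear factors and cofactors, 2 fell (15.4%, beside 8.41% of all genes) and none rose. Tle2, a corepressor that occupies TCF and LEF factors in the absence of β-catenin, averaged 373 ± 11.9, 226 ± 6.40 and 305 ± 23.7 CPM in the same order of groups. It fell by 0.72 on col1-ACLP and by 0.29 on col1-ACLP+SB (edgeR adjusted p = 6.1e-11 and 0.00022), and was 0.43 higher with the inhibitor than without it (adjusted p = 4.7e-05). Tcf7l2, a TCF factor, was the other, with a change of −0.15 (edgeR adjusted p = 0.0373). Bcl9l, a β-catenin cofactor with the highest FPKM of this group, differed by 0.11 (edgeR adjusted p = 0.0971).

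No ligand passed the test on col1-ACLP, and 12 of the 19 listed ligands were below the count filter. Wnt9a, the highest of the 7 that were tested at 4.61 FPKM, differed by 0.30 (edgeR adjusted p = 0.0786, and 0.0297 without col1-ACLP replicate 1), and Wls, which carries Wnt ligands to the cell surface, was at 582 ± 8.55 and 573 ± 27.7 CPM on col1 and col1-ACLP (adjusted p = 0.819). In the planar polarity and calcium branch, Nfatc2 and Nfatc3 were called higher among 14 genes, or Nfatc3 alone (7.69%) of the 13 without Nfatc2, where 9.52% of all genes were. Nfatc2, a calcium-regulated transcription factor, gave 4, 0, 0 and 0 reads on col1, 12, 6, 17 and 14 with ACLP, and 24, 4, 28 and 7 with ACLP and the inhibitor (edgeR adjusted p = 0.0132 and 0.022 against col1). It passed the count filter only through the groups with ACLP, did not pass it when only col1 and either of those groups were used, so the counts above are also given without it. These calls were lost at adjusted p of 0.0526 to 0.0547 without col1 replicate 3 or 4 or col1-ACLP replicate 3, and of 0.0639 to 0.0972 without col1 replicate 2, 3 or 4 or col1-ACLP+SB replicate 1 or 3. Scrib, a polarity scaffold with the highest FPKM of that branch, differed by 0.12 (edgeR adjusted p = 0.19). Between the groups with and without the inhibitor, Tle2 rose and Ccn4, Lgr4 and Nfatc3 fell.

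**Figure D5:**
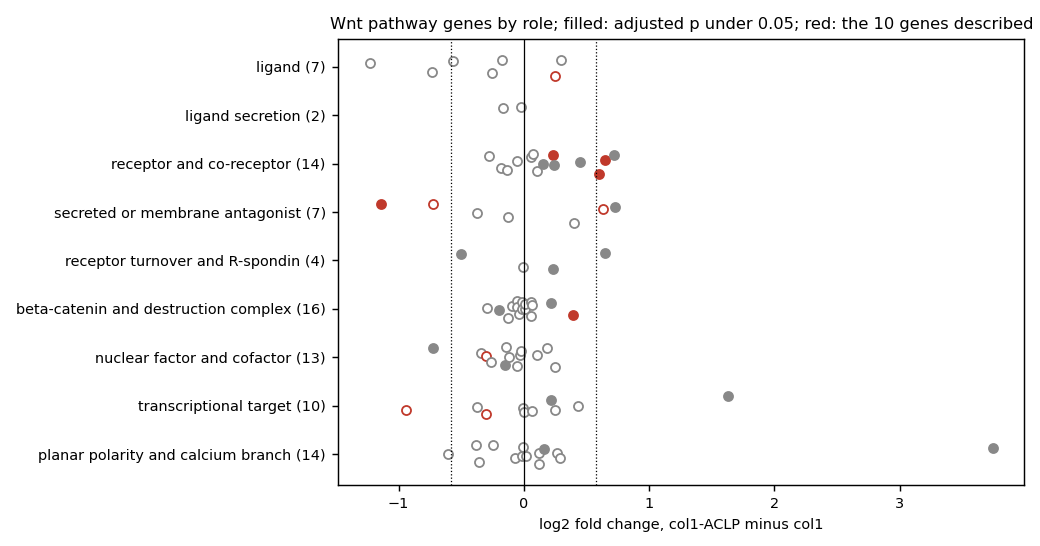
Log2 fold change on col1-ACLP against col1 of the 83 tested Wnt pathway genes, 1 row per role with the number tested; a gene with more than 1 role stands in each row. Filled points have an adjusted p below 0.05, red points are the 10 genes described above and dotted lines mark a size of 0.58. The receptor row has 7 filled points, all to the right of 0, and the ligand rows have none.

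By Pearson correlation of log2 CPM over the 12 libraries, the genes whose pattern was most like that of Fzd8 were Col1a2 (r = 0.994), Sparc (0.992) and Cspg4 (0.991), which encode a type I collagen chain, a collagen-binding matrix protein and a membrane proteoglycan. Those most like Sfrp1 were Rab33b (0.901), Thoc6 (0.901), which overlaps Hcfc1r1 on the other strand, and Acad11 (0.879). Reads of Hcfc1r1 came to 17960 over all libraries beside 5189 for Thoc6. Neither Sfrp1 nor any of the genes most like it passed the test in a comparison. Both sets were picked as the highest coefficients among all genes tested. The libraries share their hydrogel groups, and these coefficients are a description without a p-value.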

How the data were processed

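Bulk poly(A) RNA sequencing of 12 libraries was used, 4 per hydrogel group as the sample records give them, and the study describes them as biological replicates. The authors mapped reads with HISAT2 and deposited raw counts per gene, neither normalized nor filtered. The sample records name mm10 and the study's methods GRCm39. The coordinates in the table overlapped the same gene on GRCm39 for 56017 of 56017 identifiers in the GENCODE annotation, so GRCm39 was used. The counting tool and its strand setting are not given in the sources used here.

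The main test was edgeR 4.0.16 under R 4.3.3 (filterByExpr, TMM factors, glmQLFit, glmQLFTest), fitted on all 12 libraries with 1 mean per group and no covariate, with Benjamini-Hochberg adjustment over 16465 genes. The study's methods name DESeq2, which was an alternative here (1.42.0), as was limma-voom (3.58.1). The size threshold of 0.58 follows those methods. CPM used TMM-scaled totals, and FPKM is CPM per kilobase of the deposited gene length. The fits were also run on simulated counts with known changes, and the outcome is not given here. The common dispersion had a square root of 0.153. Relative to the level, counting error was largest for the genes with the fewest reads. Among the 10 genes these were Axin2, Dkk3, Lef1, Sfrp2, Sfrp1 and Wnt5a. Libraries with the same replicate number did not deviate together (correlations −0.037 to 0.036). Intervals cover 95%.

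The 10 genes and the 114-gene list were chosen with earlier results of these data known. Other genes named are those of the list past 0.58 in any comparison, the highest FPKM gene of each role, the 3 genes most correlated with Fzd8 and with Sfrp1, and, chosen after values were seen, the remaining genes in counts of 7 or fewer.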

Additional observations from a re-analysis of the deposited data

Results flagged for a closer look

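Within groups of 4 libraries, 90 sets of values of the named genes were checked for a library far from the others by Dixon's test at the 95% level, and 3 stood out, where chance alone gives about 1 in 20. Among the 30 sets of the 10 main genes there was 1. Dkk3 was at 1.22 CPM (40 reads) in col1-ACLP replicate 1 and at 0.100 to 0.283 CPM in the other col1-ACLP libraries. Nfatc2 was at 0.104 CPM (4 reads) in col1 replicate 1 and at 0 in the other col1 libraries. With those at 0 any read would have been flagged, so the chance rate does not hold for this set. Rspo2 was at 343 CPM in col1 replicate 2, the library that stood apart on the first principal component, and at 326 to 328 CPM in the other col1 libraries.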

How the results depend on the processing

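The calls of Fzd8, Lrp5 and Ctnnb1 against col1 in both ACLP groups, and of Lrp6 on col1-ACLP, held under all 20 alternatives run for each, with log2 changes on col1-ACLP of 0.59 to 0.67, 0.55 to 0.62, 0.35 to 0.41 and 0.18 to 0.27. No called value among the named genes reversed. Asking for a size above 0.58 left 2 of the 4 higher members on col1-ACLP, 0 of 3 higher on col1-ACLP+SB, and pathway counts of 7 higher and 2 lower, 2 and 2, and 0 and 0 in the 3 comparisons. Nfatc2 was among the higher genes in the first 2 of these, and Axin2 among the lower in the second. Both passed the count filter only through the groups where they were higher. Without them, Ccn4 alone was higher and Sfrp2 alone lower by this rule on col1-ACLP+SB. Scaling by library size alone gave 11 lower pathway genes on col1-ACLP in place of 5, where 1865 of the 16465 genes tested were lower in place of 1385. It also moved the share of higher genes among all called from 53.1% to 38.3% on col1-ACLP, from 50.3% to 41.8% on col1-ACLP+SB and from 38.7% to 59.0% between the ACLP groups. Against col1, the lower members on col1-ACLP+SB numbered 1 in place of 2 with DESeq2, which gave Axin2 no adjusted p. The same number came with the replicate block, where Sfrp2 did not pass and Axin2 held. It also came with only the 2 groups, where Axin2 did not pass the filter and 3 pathway genes were lower in place of 6. The block changed no other call of the 10 genes. Between the ACLP groups, lower members numbered 2 with no filter on low counts, 3 with DESeq2 and 2 with limma-voom in place of 0, and lower pathway genes 5, 7 and 5 in place of 3. Leaving out each library gave 0 to 1 lower members on col1-ACLP, 0 to 2 on col1-ACLP+SB and 0 to 3 between the ACLP groups, and 2 to 6, 2 to 6 and 2 to 7 lower pathway genes. The lower pathway genes were 2 or 3 on col1-ACLP without col1 replicate 1 or 4 or col1-ACLP replicate 1 or 4, 2 or 3 on col1-ACLP+SB without col1 replicate 3 or 4 or col1-ACLP+SB replicate 1, 2 or 4, and 7 between the ACLP groups without col1-ACLP+SB replicate 3. Of the genes outside the 10, Frzb on col1-ACLP+SB passed in 5 of 20 alternatives (adjusted p from 0.0322), and in 1 of 20 each did Wnt9a (0.0297, without col1-ACLP replicate 1) and Kremen1 (0.0476, library size alone) on col1-ACLP and Scrib (0.0453, without col1-ACLP replicate 4) on col1-ACLP+SB. The cause of these changes was not tested. Few reads limit Axin2, Lef1 and Dkk3 most, and also Sfrp1, Sfrp2 and Wnt5a, and a library with 0 reads allows up to 3.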
